A study of Caenorhabditis elegans with 14 samples.

Results

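The genes described here are the Argonautes and the other RNA interference genes of *Caenorhabditis elegans*, measured by poly(A) RNA sequencing in 14 libraries. The study gives the stage of the animals as L4 to young adult in its results and as young adult to gravid in its methods. The genes were chosen by a name rule, with earlier results of these data known. The rule takes every gene called alg, ergo, wago, csr, prg, rde, ppw, sago, hrde, nrde, mut, rrf, drh, dcr, eri or sid with a number. It also names ego-1, vsra-1 and henn-1. This rule found 58 of the 46856 genes listed, since vsra-1 does not occur under that name. Of the 58 genes, 54 are typed as protein coding, 55 had exon reads in at least 1 library and 53 had them in all 14. The members without any exon read, drh-2, prg-2 and wago-2, are typed as pseudogenes with no exon annotated and are described from their gene reads further on. The other 55 passed the filter on low counts in the comparisons among 12 or 14 libraries, and 53 passed it in the comparison among the 6 heat-shocked libraries.

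The libraries fall into 7 groups of 2, which the study describes as independent biological replicates. The group skn-1i is rrf-3(pk1426);daf-2(e1368) animals fed bacteria that express double-stranded RNA against skn-1, a transcription factor of the antioxidant response. The group daf-16i is the same strain on RNAi against daf-16, the FOXO transcription factor of insulin signaling, and hsf-1i (HS) is that strain on RNAi against hsf-1, the heat shock transcription factor, after a heat shock. The groups rIIS-C (HS) and rIIS-C, for reduced insulin/IGF-1 signaling, are the same strain on empty vector bacteria with and without the heat shock. The groups C (HS) and C are rrf-3(pk1426) animals with wild-type daf-2 on empty vector bacteria, again with and without the heat shock. Animals were grown at 20 °C, and the heat shock was 33 °C for 2 h just before harvest. The allele daf-2(e1368) lowers the activity of the insulin/IGF-1 receptor. All 7 groups carry rrf-3(pk1426), a mutation in a member of this gene set that makes animals more sensitive to RNAi, so no library has a wild-type small RNA pathway. Whole animals were lysed, so fewer cells of a type and less RNA per cell cannot be told apart. Most of the rrf-3 animals that looked unhealthy after the heat shock were picked out by hand, so some may remain in the libraries.

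Argonautes are proteins that carry a small RNA and use it to find matching transcripts. In the worm, Dicer cuts double-stranded RNA into primary small interfering RNAs, which the primary Argonaute RDE-1 holds, and RNA-dependent RNA polymerases (RdRPs) then copy the target transcript into secondary small RNAs that load onto the worm-specific WAGO Argonautes. Parallel branches use microRNAs (ALG-1, ALG-2), Piwi-interacting RNAs (PRG-1), the germline licensing Argonaute CSR-1, and endogenous small RNAs made with RRF-3, Dicer and the ERI proteins that load onto ERGO-1 or, in sperm, ALG-3 and ALG-4. Much of this machinery is expressed in the germline, and nuclear Argonautes with NRDE cofactors carry silencing into chromatin and across generations.

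The libraries held 4681170 to 22767301 exon reads, of which these genes took 0.150% to 0.594%. Levels are given below as counts per 1000000 exon reads scaled with TMM factors (CPM), and differences as log2 fold changes from edgeR's quasi-likelihood test with p-values adjusted by the Benjamini-Hochberg method over all genes tested, called at an adjusted p under 0.05. The targets of RNAi were lower for skn-1 (26.2 and 25.3 CPM in skn-1i, against 153 and 102 CPM in rIIS-C) and hsf-1 (13.6 and 13.9 CPM in hsf-1i (HS), against 34.2 and 42.0 CPM in rIIS-C (HS)). For daf-16, with 51.7 and 40.7 CPM in daf-16i against 85.9 and 49.9 CPM in rIIS-C, the difference was not called (log2 -0.55, adjusted p = 0.283). The libraries also split by the share of a gene's exon reads that span an exon junction. The median of this share over 2639 genes was 10.3% to 10.5% in 6 libraries, 23.5% to 25.4% in 6 others, and 16.6% and 17.4% in the C (HS) libraries. Every group but C (HS) holds 1 library of each kind, so for C (HS) this split and the group cannot be told apart. The library skn-1i 2 had 9.80% of its reads in ribosomal RNA genes. The TMM factors ranged widely, from 0.658 to 1.63. With library size alone as the scale, the median log2 fold change of all genes moved to -1.10 in skn-1i vs rIIS-C, -0.92 in skn-1i vs daf-16i, -0.85 in hsf-1i (HS) vs rIIS-C (HS), -0.97 in C (HS) vs C and 0.80 in rIIS-C (HS) vs C (HS), and all changes given here are relative to the TMM scale.

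Per kilobase of exon, wago-1, a germline WAGO Argonaute of perinuclear granules, had the highest level of the set, with a median over the 14 libraries of 153 CPM per kb. It was followed by csr-1 at 78.6, hrde-1, the nuclear germline Argonaute of heritable silencing, at 73.0, and prg-1 at 70.7 CPM per kb. The ranges of these 3 overlapped across libraries, at 45.0 to 105 CPM per kb for csr-1, 57.9 to 156 for hrde-1 and 45.3 to 127 for prg-1. The double-stranded RNA binding protein gene rde-4, whose product works with Dicer, had 55.3 CPM per kb, and ergo-1 had 32.7, alg-3 29.4, alg-4 25.4, mut-16, the scaffold of mutator foci, 20.7 and henn-1, the small RNA methyltransferase, 27.6. Lower were dcr-1 at 10.1, rde-1 at 12, the channel gene sid-1 at 9.48 and the exonuclease gene eri-1 at 17.1 CPM per kb. The microRNA Argonautes alg-2 and alg-1 had 13.6 and 9.42 CPM per kb. The nuclear somatic Argonaute nrde-3 had 7.28 CPM per kb, the germline RdRP ego-1 10.2, the somatic RdRP rrf-1 6.61 and rrf-3 3.0. The lowest levels were those of wago-11 at 0.124 and wago-5 at 0.036 CPM per kb. The heat map of member levels shows each gene against its mean log2 value in the C libraries.

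**Figure D1:**
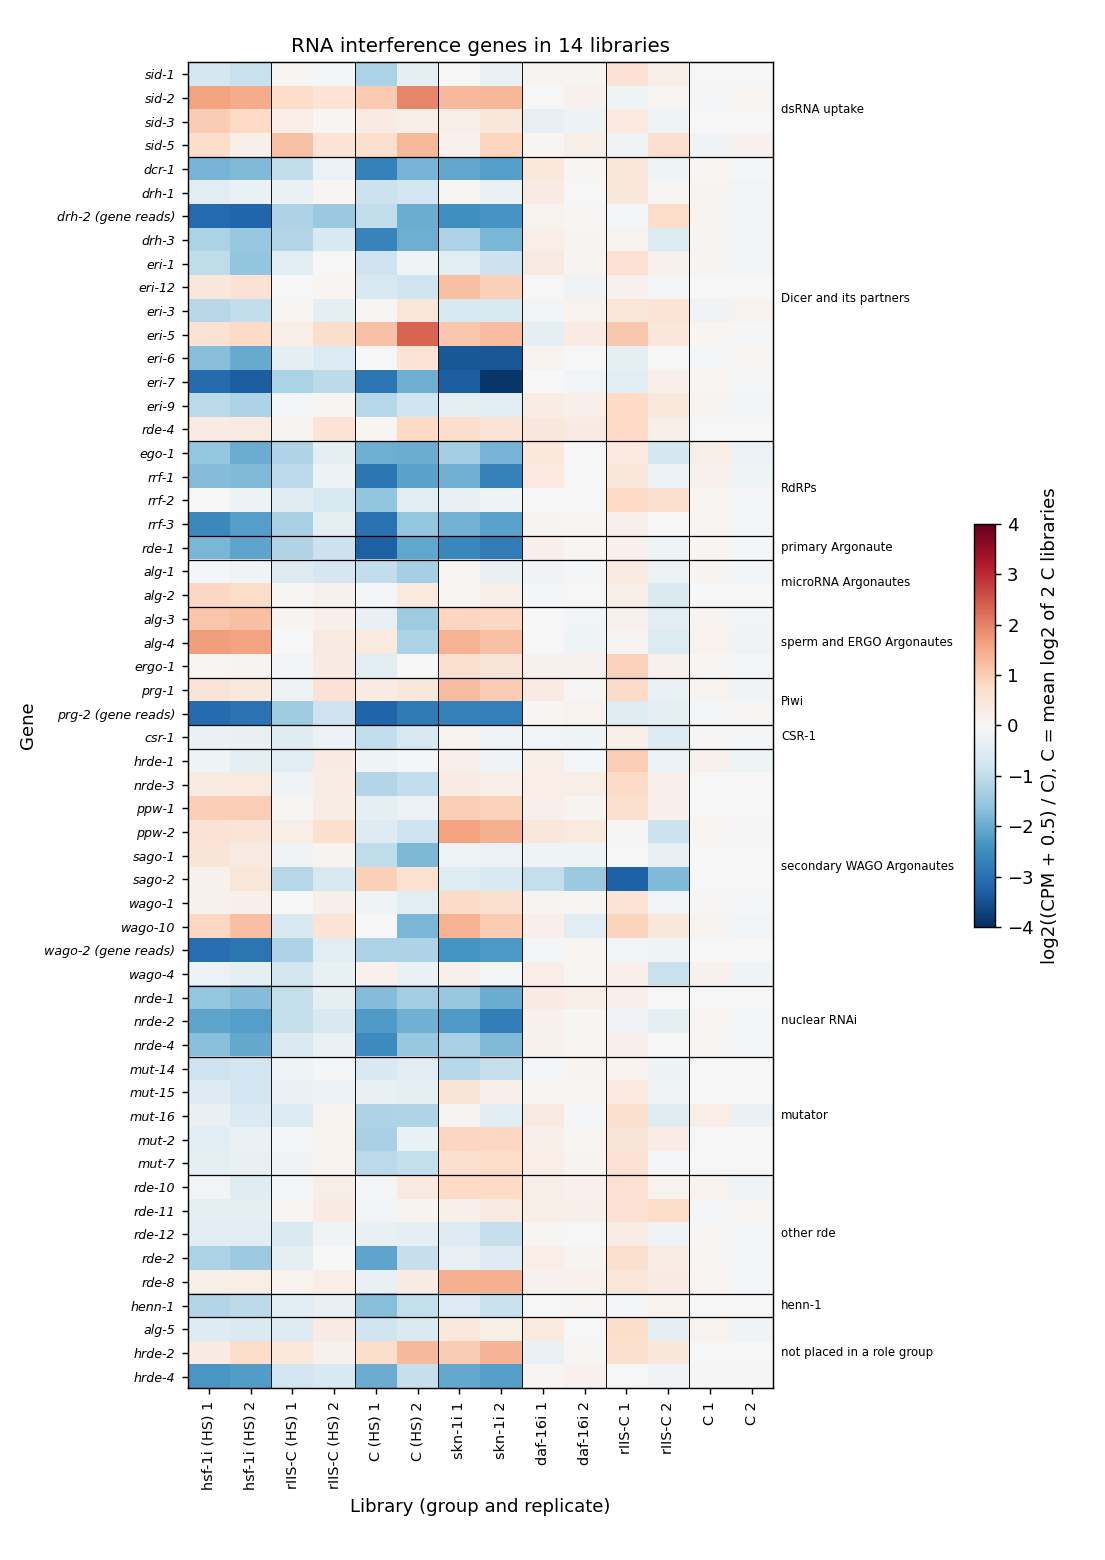
Heat map of 53 members from exon reads and of the pseudogenes drh-2, prg-2 and wago-2 from gene reads, in rows by role, in the 14 libraries; colour is log2 of CPM + 0.5 relative to the mean log2 value of the C libraries, and the near-silent wago-5 and wago-11 are left out. Blue cells, lower than C, mark dcr-1, rrf-1, rrf-3, rde-1, eri-7, nrde-1, nrde-2 and nrde-4 in the skn-1i, hsf-1i (HS) and C (HS) libraries. Red cells, higher than C, mark alg-3, alg-4 and sid-2 in the skn-1i and hsf-1i (HS) libraries.

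The mutated gene itself, rrf-3, was transcribed in all 14 libraries. In heat-shocked animals it had 4.13 and 5.49 CPM in hsf-1i (HS), 10.8 and 21 CPM in rIIS-C (HS), and 3.0 and 8.95 CPM in C (HS). Without heat shock it had 6.89 and 5.74 CPM in skn-1i, 29.2 and 27.9 CPM in daf-16i, 31.2 and 27.1 CPM in rIIS-C, and 28.5 and 25.7 CPM in C. The skn-1i, hsf-1i (HS) and C (HS) libraries all lay below every library of the other groups. These reads count transcripts of the mutant locus and say nothing of its protein.

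On skn-1 RNAi dcr-1, rde-1, all 4 RdRPs, eri-6, eri-7 and the 3 nuclear RNAi cofactors were lower, and ppw-2, alg-3 and alg-4 were among the higher genes. Of the 55 members tested in skn-1i against rIIS-C, 21 were lower and 11 higher, where 30.6% of all genes tested were called lower and 25.7% higher. The median log2 fold change was -0.22 over the members and -0.13 over all genes. By role, 7 of 11 tested genes of Dicer and its partners and all 4 RdRPs were lower, as were rde-1 and all 3 nuclear RNAi cofactors, whereas 2 of 3 sperm and ERGO Argonautes and 3 of 11 tested WAGO Argonautes were higher and none lower. The share of WAGO Argonautes called higher is close to the share of all genes, and the share of all members called higher is below it. The role groups were set with earlier results of these data known, so the counts by role are descriptive. In each called gene the 2 libraries of skn-1i lay apart from those of rIIS-C.

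The lower genes were led by eri-6 and eri-7, neighbours on opposite strands whose transcripts are joined by trans-splicing into the mRNA of a single helicase. The first, eri-6, had 0.608 and 0.585 CPM in skn-1i, against 8.59 and 10.9 CPM in rIIS-C (log2 -4.03, SE 0.31, adjusted p = 2.20e-06). Its partner eri-7 had 3.24 and 1.99 CPM in skn-1i, against 26.6 and 41.7 CPM in rIIS-C (log2 -3.79, SE 0.29, adjusted p = 2.01e-06). Both skn-1i libraries lay below both rIIS-C libraries in each gene. Reads of eri-6 were counted without regard to strand and overlap those of C41D11.6 on the opposite strand and T01A4.9 on the same strand.

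The primary Argonaute gene rde-1 (chromosome V, 9988043 to 9991614, WBcel235) had 12 and 10.5 CPM in skn-1i, against 85.6 and 67.5 CPM in rIIS-C (log2 -2.77, SE 0.20, adjusted p = 1.39e-06). The Dicer gene dcr-1 (chromosome III, 8072110 to 8080274) had 19.9 and 18.3 CPM in skn-1i, against 118 and 76.4 CPM in rIIS-C (log2 -2.34, SE 0.28, adjusted p = 3.70e-05). The skn-1i libraries lay below each rIIS-C library in both genes. Among the RdRPs, rrf-1 had 12 and 6.91 CPM in skn-1i, against 65.5 and 40.5 CPM in rIIS-C (log2 -2.50, SE 0.36, adjusted p = 0.000139). The log2 fold change was -2.21 for rrf-3, -1.54 for ego-1 and -1.05 for rrf-2. The nuclear RNAi genes, which act with nuclear Argonautes at the target's chromatin, gave -2.27 for nrde-2, -1.87 for nrde-1 and -1.63 for nrde-4. The helicase gene drh-3, whose product works with the RdRPs, gave -1.38, and the ERI complex genes eri-1, eri-3 and eri-9 gave -1.05, -1.15 and -1.03. The helicase genes mut-14 and rde-12, the mutator gene rde-2, henn-1, hrde-4 and sid-1 made up the rest of the lower genes, at -1.0, -0.81, -0.92, -0.76, -2.12 and -0.53.

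The higher genes were led by ppw-2, a germline WAGO Argonaute, with 258 and 228 CPM in skn-1i, against 86.9 and 46.0 CPM in rIIS-C (log2 1.89, SE 0.26, adjusted p = 9.78e-05). The sperm Argonaute gene alg-4 had 199 and 171 CPM in skn-1i, against 81.7 and 51.7 CPM in rIIS-C (log2 1.48, SE 0.22, adjusted p = 0.000171), and its paralog alg-3 had 156 and 151 CPM against 95.5 and 63.0 CPM (log2 0.96, SE 0.19, adjusted p = 0.00127). All 3 genes were higher in each skn-1i library than in each rIIS-C library. The gene sid-2, which encodes an intestinal surface protein for the uptake of double-stranded RNA from the gut, had 23.1 and 23.5 CPM in skn-1i, against 8.09 and 9.70 CPM in rIIS-C (log2 1.37, SE 0.18, adjusted p = 6.26e-05), but 44.4% of its reads mapped uniquely and dyf-2 overlaps it on the opposite strand. The somatic secondary Argonaute gene sago-2 had a log2 fold change of 1.73 (adjusted p = 0.00262) from 12 and 11.1 CPM in skn-1i, against 1.35 and 4.68 CPM in rIIS-C, with 8.97% of its reads mapped uniquely. The other higher genes, eri-12, rde-8, prg-1, hrde-2, ppw-1 and mut-2, lay between 0.45 and 1.02, and of the ppw-1 reads 20.1% mapped uniquely. The microRNA Argonautes alg-1 and alg-2, csr-1, ergo-1, hrde-1, nrde-3, wago-1, rde-4 and mut-16 were not called, with log2 fold changes between -0.45 and 0.44.

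Of the 21 lower genes, 17 stayed called lower under all 12 other settings that keep every library, among them dcr-1, rde-1, rrf-1, rrf-3, ego-1, eri-6, eri-7, nrde-1, nrde-2 and nrde-4. Of the 11 higher genes, ppw-2 alone stayed called under all 12. Scaled by library size alone, 41 members were lower and 2 higher (alg-4 and ppw-2), where 63.2% of all genes were lower and 8.0% higher. With a trend over exon length removed from the log2 values 18 members were lower and 26 higher, where 28% of all genes were lower and 32.5% higher. Within the low-junction libraries the median log2 difference of the members was -0.36 and within the high-junction libraries 0.07, with 26 members lower in both, 17 higher in both and 12 opposite. The members' median log2 fold change was 0.12 without rIIS-C 1, -0.47 without rIIS-C 2 and -0.06 without skn-1i 2. Over all genes it was -0.07, -0.11 and -0.15 in the same order.

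**Figure D2:**
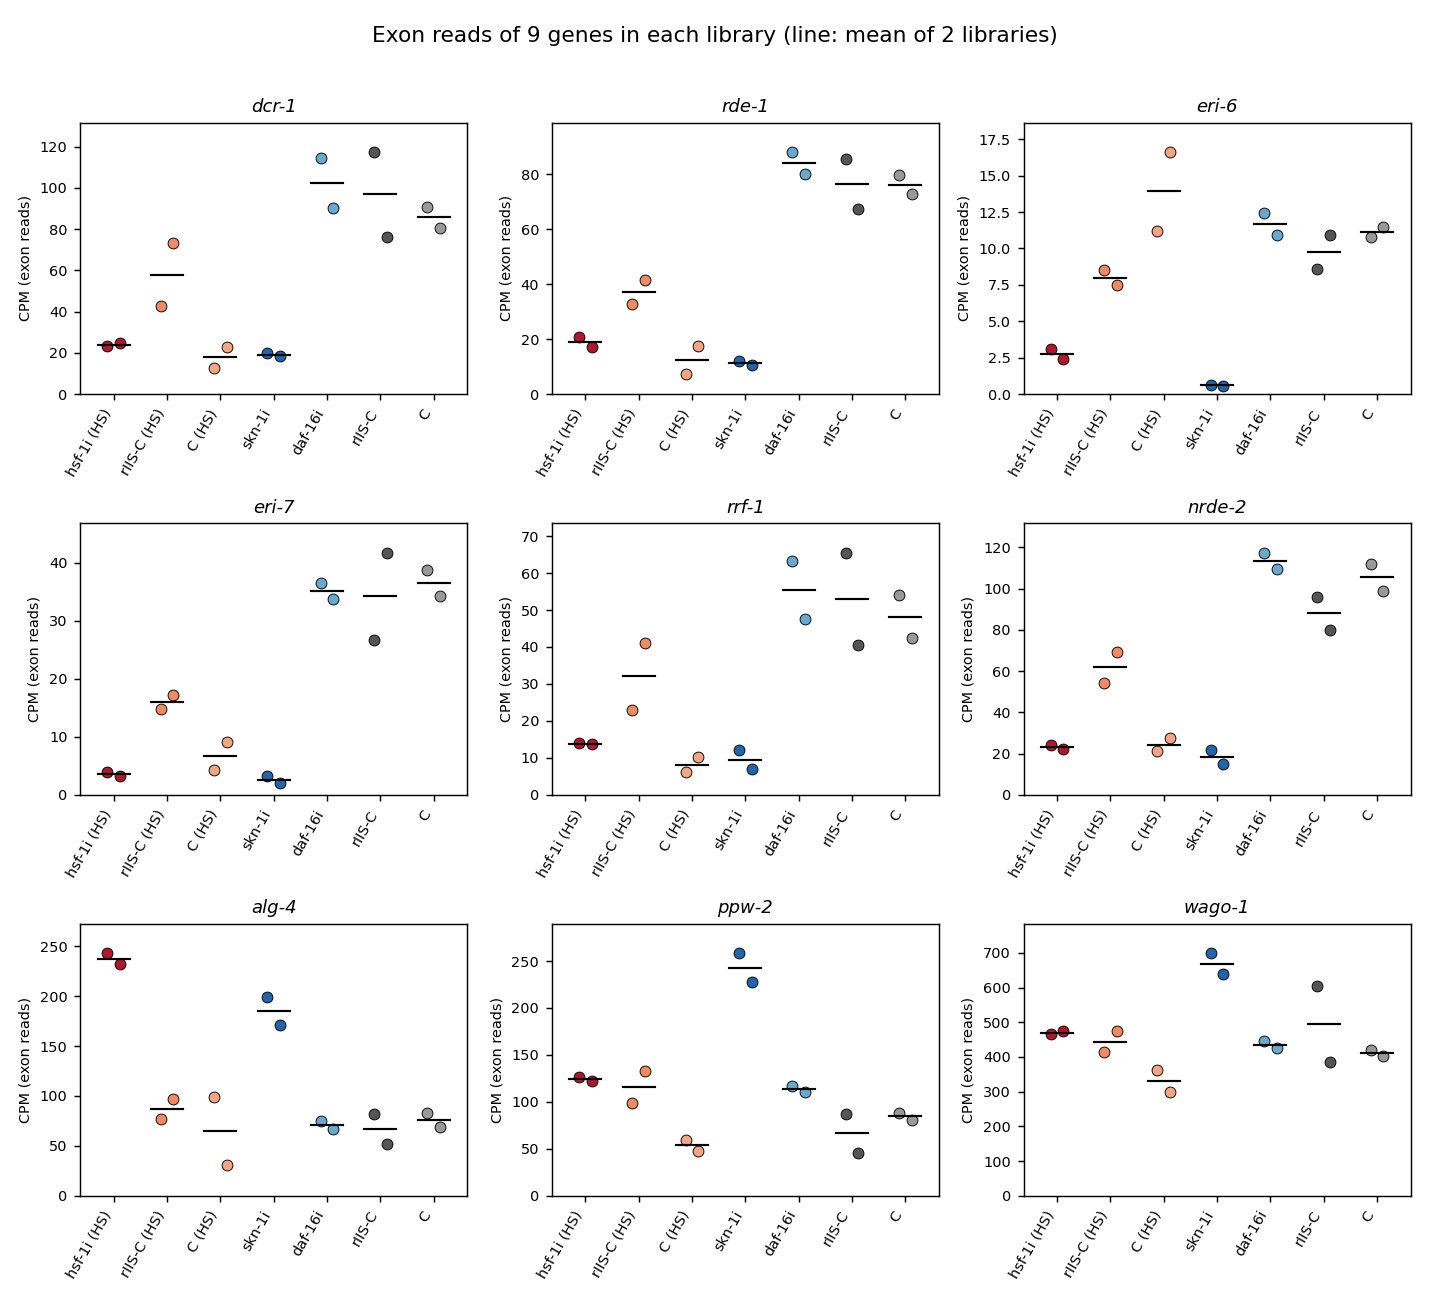
CPM from exon reads (linear axis) of dcr-1, rde-1, eri-6, eri-7, rrf-1, nrde-2, alg-4, ppw-2 and wago-1 in each of the 14 libraries, by group; points are libraries and the line is the mean of 2 libraries. For rde-1 the skn-1i libraries sit at 12 and 10.5 CPM and the rIIS-C libraries at 85.6 and 67.5 CPM, while for alg-4 the skn-1i libraries sit at 199 and 171 CPM and the rIIS-C libraries at 81.7 and 51.7 CPM.

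Markers of cell types moved with these changes. Summed over 18 sperm markers, skn-1i libraries had 1608 to 2542 CPM and rIIS-C libraries 551 to 633 CPM, and 9 of these markers were called higher and 2 lower. Summed over 16 germline markers, skn-1i libraries had 2490 to 2705 CPM and rIIS-C libraries 2075 to 3518 CPM, with 2 called higher and 5 lower. Muscle markers were called higher for 9 of 10 and lower for 1, and intestine markers higher for 7 of 10 and lower for 1. Hypodermis markers were higher for 7 of 10, and neuron markers higher for 5 of 10 and lower for 3. Of 12 oocyte markers 2 were higher and 2 lower, and of 8 tested embryo markers 2 were lower. None of the germline and sperm markers was at 0 in any group. Their part in the changes of alg-3, alg-4 and the other members was not tested. Within rIIS-C itself, replicate 1 exceeded replicate 2 in 45 of the 53 members above 1 CPM and in 16 of 16 germline markers. In rIIS-C (HS) replicate 1 did so in 9 of the 53 members and 0 of 16 germline markers. Replicate 1 is the low-junction library in rIIS-C and the high-junction library in rIIS-C (HS). The same counts over all genes were not made.

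Knock-down of hsf-1 in heat-shocked animals lowered a set of genes that included Dicer, rde-1, RdRPs and nuclear RNAi cofactors. Of 55 members tested in hsf-1i (HS) against rIIS-C (HS), 18 were lower and 10 higher, where 19.3% of all genes were called lower and 18.8% higher, and the median was -0.26 over the members and -0.05 over all genes. Lower were 6 of 11 tested genes of Dicer and its partners, 2 of 4 RdRPs, rde-1 and all 3 nuclear RNAi cofactors. Higher were 4 of 11 tested WAGO Argonautes, 2 of 3 sperm and ERGO Argonautes and 2 of 4 uptake genes.

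The gene eri-7 had 3.87 and 3.26 CPM in hsf-1i (HS), against 14.7 and 17.3 CPM in rIIS-C (HS) (log2 -2.14, SE 0.28, adjusted p = 0.000189). For rrf-3 the log2 fold change was -1.70 (SE 0.31, adjusted p = 0.00137), from the values given above. The gene hrde-4 had 8.66 and 9.43 CPM in hsf-1i (HS), against 27 and 30.0 CPM in rIIS-C (HS) (log2 -1.65, SE 0.15, adjusted p = 3.56e-05). In each of these genes the hsf-1i (HS) libraries lay below both rIIS-C (HS) libraries. For eri-6 the values were 3.07 and 2.40 CPM in hsf-1i (HS), against 8.49 and 7.49 CPM in rIIS-C (HS) (log2 -1.53, SE 0.24, adjusted p = 0.00056). Dicer gave 23.2 and 24.9 CPM in hsf-1i (HS), against 42.7 and 73.1 CPM in rIIS-C (HS) (log2 -1.26, SE 0.27, adjusted p = 0.00382), and rde-1 gave 20.9 and 17.3 CPM, against 32.7 and 41.4 CPM (log2 -0.94, SE 0.19, adjusted p = 0.0023). The remaining lower genes, rrf-1, rde-2, rde-11, eri-1, eri-3, eri-9, nrde-1, nrde-2, nrde-4, sid-1, henn-1 and mut-14, lay between -1.42 and -0.58.

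The largest rise was in the sperm Argonaute gene alg-4. Its values were 243 and 232 CPM in hsf-1i (HS), against 77.4 and 97.3 CPM in rIIS-C (HS) (log2 1.45, SE 0.22, adjusted p = 0.00043). The gene sago-2 had 19.5 and 24.2 CPM in hsf-1i (HS), against 7.58 and 10.7 CPM in rIIS-C (HS) (log2 1.28, SE 0.34, adjusted p = 0.013), and wago-10 had 6.66 and 8.74 CPM, against 2.14 and 5.35 CPM (log2 1.13, SE 0.41, adjusted p = 0.0487). For alg-3 the values were 183 and 198 CPM in hsf-1i (HS), against 91.1 and 98.5 CPM in rIIS-C (HS) (log2 1.01, SE 0.19, adjusted p = 0.00162). The groups did not overlap in any of these genes. The other higher genes, sid-2, ppw-1, sid-3, alg-2, eri-12 and sago-1, lay between 0.45 and 0.92.

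Of the 18 lower genes 15 stayed called lower under all 12 other settings that keep every library, and of the 10 higher genes alg-4 alone did. Scaled by library size alone, 39 members were lower and 1 higher, where 53.3% of all genes were lower and 5.27% higher, and with the exon length trend removed 20 were lower and 19 higher, where 21.1% of all genes were lower and 22.8% higher. The members' median log2 fold change was -0.35 without hsf-1i (HS) 1, -0.19 without hsf-1i (HS) 2 and -0.46 without rIIS-C (HS) 1. Over all genes it was -0.06, -0.04 and -0.0001 in the same order. Within the low-junction libraries the median of the members was -0.34 and within the high-junction libraries -0.05, with 27 members lower in both and 15 higher in both. The sperm markers summed to 2706 to 3297 CPM in hsf-1i (HS) and 951 to 1536 CPM in rIIS-C (HS), and the germline markers to 1829 to 1853 CPM in hsf-1i (HS) and 1962 to 2440 CPM in rIIS-C (HS). Called higher were 9 of 18 sperm, 9 of 10 muscle, 6 of 10 intestine and 6 of 10 hypodermis markers, and 4 of 16 germline markers were lower. Of 10 neuron markers 5 were higher and 1 lower, and 1 sperm and 1 intestine marker were lower. Of 12 oocyte markers 2 were higher, and of 8 tested embryo markers 3 were higher and 1 lower. The part of these cell types in the members' changes was not tested.

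The skn-1i and hsf-1i (HS) comparisons share no library. Of the members, 17 were lower in both, which is 81.0% of the 21 lower on skn-1 RNAi and 94.4% of the 18 lower on hsf-1 RNAi, and 6 were higher in both, or 54.5% and 60%. No member was called in opposite directions. Over all genes tested, 2094 were lower in both, or 49.3% and 78.0%, and 2033 were higher in both, or 57.0% and 77.9%, while 126 were called in opposite directions.

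**Figure D3:**
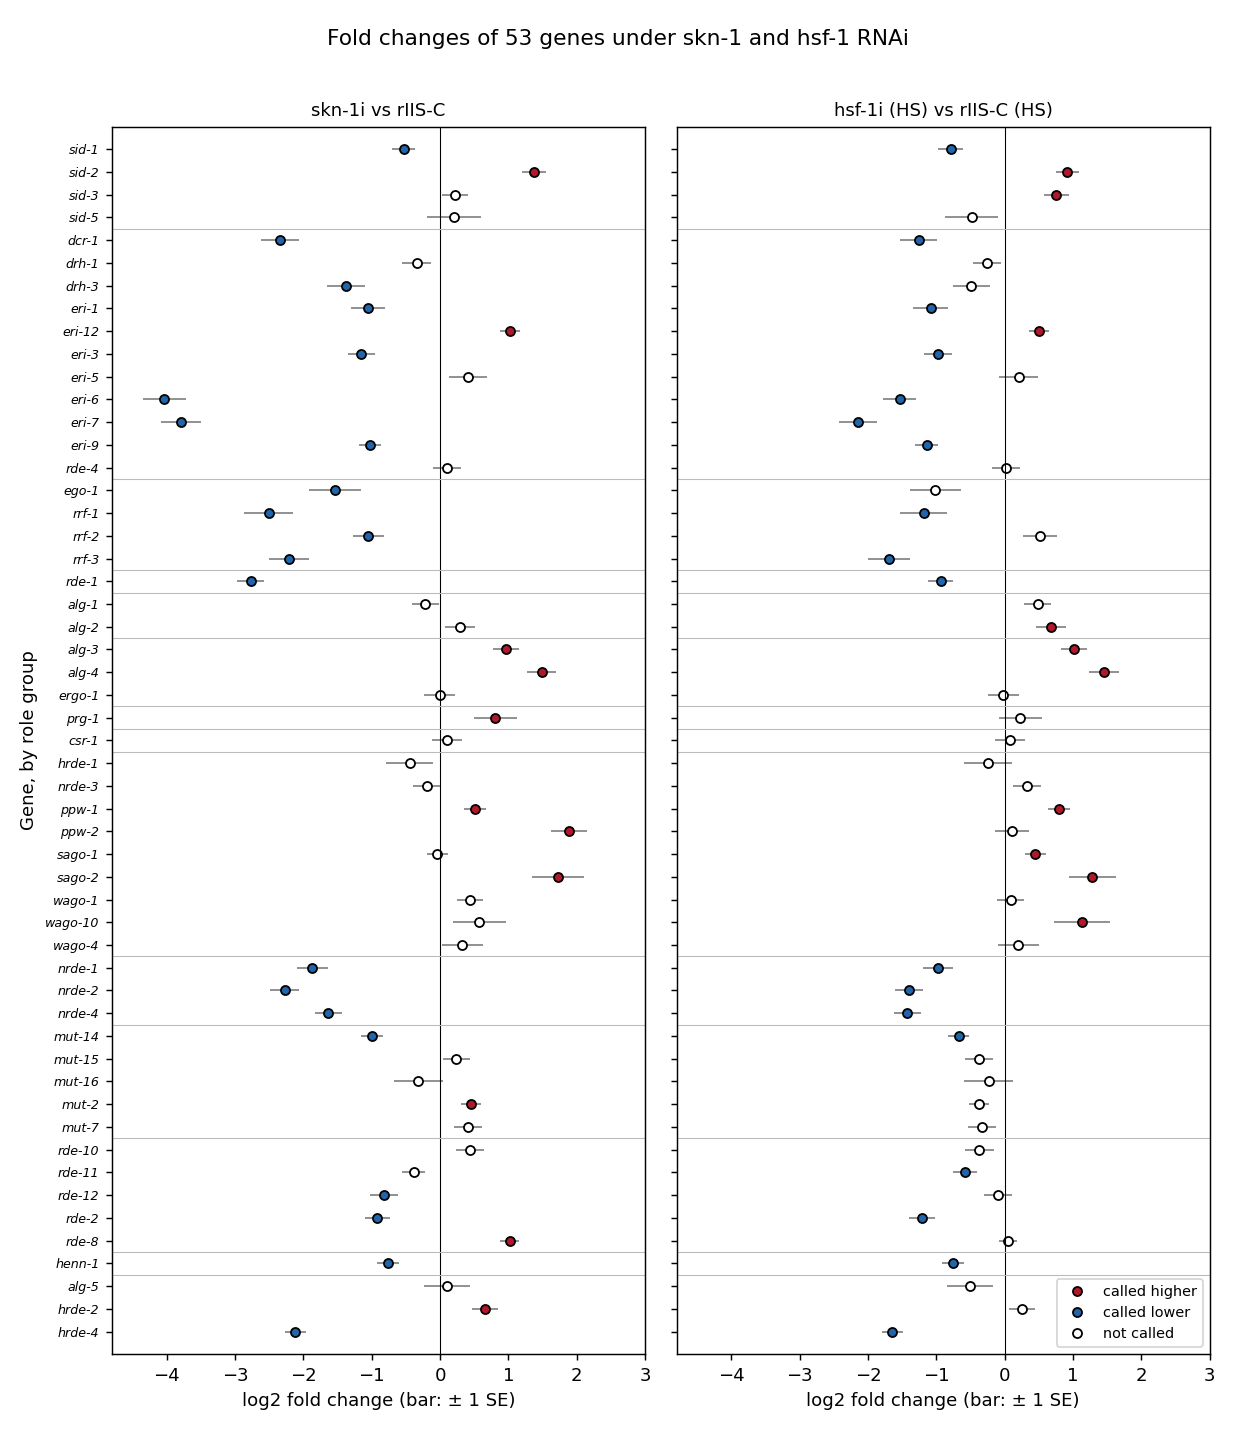
Log2 fold changes of 53 members, in rows by role, for skn-1i against rIIS-C on the left and hsf-1i (HS) against rIIS-C (HS) on the right; bars are 1 SE and filled points passed an adjusted p under 0.05. The members eri-6, eri-7, rde-1 and rrf-1 sit at -4.03, -3.79, -2.77 and -2.50 on skn-1 RNAi and at -1.53, -2.14, -0.94 and -1.19 on hsf-1 RNAi.

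RNAi against daf-16 left the set without a called gene. In daf-16i against rIIS-C none of 55 members passed, where 3.29% of all genes were called higher and 2.78% lower, and the median was -0.06 over the members and -0.03 over all genes. At an unadjusted p under 0.05 there were 8 members, and 2593 of all 13892 genes tested. DESeq2 called 1 member higher, where 3.80% of all genes were, and limma on log2(RPKM + 1) called 1 lower, where 3.34% were. The fit with the junction class as a block called 1 higher and 3 lower, where 6.08% of all genes were higher and 4.89% lower. The members' median was 0.16 without rIIS-C 1 and -0.32 without rIIS-C 2, where it was -0.01 and -0.008 over all genes. The gene daf-16 itself was not called lower in these libraries. The study reports efficient knock-down by its RNAi clones in every replicate, but the figure legend for it gives values for hsf-1 and skn-1 only. It also reports changes of sod-3 and dod-24 that depended on DAF-16.

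The skn-1 and daf-16 knock-downs were made in the same strain at the same temperature. Of 55 members, 19 were lower and 16 higher in skn-1i against daf-16i, where 30.5% of all genes were called lower and 28.1% higher. The groups differed most in eri-6, with 0.608 and 0.585 CPM in skn-1i, against 12.4 and 10.9 CPM in daf-16i (log2 -4.27, SE 0.31, adjusted p = 9.55e-07). For eri-7 the log2 fold change was -3.81, for rde-1 -2.91 and for nrde-2 -2.64, each with the skn-1i libraries below the daf-16i libraries. Among the higher genes, wago-10 gave 1.43, alg-4 1.38, hrde-2 1.32 and rde-8, which encodes an endonuclease of the RNAi response, 1.26. The rde-8 values were 79.9 and 79.4 CPM in skn-1i, against 33.1 and 33.4 CPM in daf-16i. Of the 19 lower genes 15 stayed called under all 12 other settings that keep every library, and of the 16 higher genes none did. Scaled by library size alone, 36 members were lower and 2 higher, where 56.5% of all genes were lower and 10.2% higher, and with the exon length trend removed 15 were lower and 28 higher, where 28.8% of all genes were lower and 34.3% higher. Without daf-16i 2 the median log2 fold change was -0.058 over the members and -0.061 over all genes. Sperm markers were called higher for 11 of 18 and lower for 3, muscle markers higher for 8 of 10, and germline markers higher for 2 of 16 and lower for 4. Intestine markers were higher for 7 of 10 and lower for 1, hypodermis markers higher for 7 of 10, and neuron markers higher for 5 and lower for 3. Oocyte markers were higher for 4 of 12 and embryo markers for 3 of 8 tested. The sperm markers summed to 1608 to 2542 CPM in skn-1i and 726 to 833 CPM in daf-16i, and their part in the members' changes was not tested. The skn-1i libraries are the same ones as in the comparison with rIIS-C.

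Between the strains at 20 °C, in rIIS-C against C, sago-2 was lower and rrf-2, rde-11 and eri-9 were higher, and the number of called members depended on the fit. Of 55 members, 3 were higher and 1 lower, where 4.46% of all genes were called higher and 6.54% lower. With the junction class as a block, 13 members were higher and 1 lower, where 8.47% of all genes were higher and 10.1% lower. Without the block the median was 0.13 over the members and 0.06 over all genes. The gene sago-2 had 1.35 and 4.68 CPM in rIIS-C, against 17.5 and 16.8 CPM in C (log2 -2.29, SE 0.36, adjusted p = 0.00184), with so few uniquely mapped reads that it dropped out of the test on unique reads. The RdRP gene rrf-2 had 7.58 and 6.90 CPM in rIIS-C, against 4.43 and 3.98 CPM in C (log2 0.78, SE 0.21, adjusted p = 0.0325). The gene rde-11, part of a complex with RDE-10 that acts on target mRNA, had 18.9 and 21.4 CPM in rIIS-C, against 12 and 13 CPM in C (log2 0.69, SE 0.16, adjusted p = 0.0172). The groups were separate in each of these genes. The ERI complex gene eri-9 had 55.9 and 43.8 CPM in rIIS-C, against 34.7 and 30.0 CPM in C (log2 0.62, SE 0.15, adjusted p = 0.0234). Within the low-junction and the high-junction libraries the log2 differences were -3.28 and -1.74 for sago-2, 0.71 and 0.72 for rrf-2, 0.61 and 0.70 for rde-11, and 0.68 and 0.54 for eri-9. No call stayed under all 12 other settings that keep every library. On library size alone 11 members were higher and 1 lower, where 6.31% of all genes were higher and 4.72% lower, and with the exon length trend removed 10 were higher and 1 lower, where 7.58% and 9.79% of all genes were. The members' median was 0.40 without rIIS-C 2, -0.07 without rIIS-C 1, 0.27 without C 1 and 0.09 without C 2. Over all genes it was 0.007, 0.02, 0.06 and 0.07 in the same order. Embryo markers were called higher for 6 of 8, with summed levels of 87.1 to 112 CPM in rIIS-C and 26.6 to 27.1 CPM in C. Hypodermis markers were lower for 7 of 10 and muscle markers for 6 of 10. Of 16 germline markers none was called, and 2 of 18 sperm markers were lower. Oocyte markers were higher for 3 of 12 and intestine markers for 2 of 10. The part of these cell types in the members' values was not tested.

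In heat-shocked control animals most called members were lower. In C (HS) against C, 27 of 55 members were lower and 4 higher, where 24.9% of all genes were called lower and 27.4% higher, and the median was -0.72 over the members and 0.03 over all genes. All 4 RdRPs, rde-1, all 3 nuclear RNAi cofactors, 4 of 5 mutator genes and 6 of 11 tested genes of Dicer and its partners were lower.

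The primary Argonaute rde-1 had 7.48 and 17.6 CPM in C (HS), against 79.8 and 72.7 CPM in C (log2 -2.61, SE 0.32, adjusted p = 5.08e-05). The RdRP rrf-1 had 6.07 and 10.4 CPM in C (HS), against 53.9 and 42.3 CPM in C (log2 -2.55, SE 0.38, adjusted p = 0.000157). The helicase gene drh-3 had 13 and 22 CPM in C (HS), against 92.7 and 80.7 CPM in C (log2 -2.31, SE 0.32, adjusted p = 0.000115). The C (HS) libraries lay below both C libraries in each case, and in rde-1 they differed from each other more than the C libraries did. For eri-7 the log2 fold change was -2.45 and for dcr-1 -2.27. In the other direction, eri-5, which encodes an ERI complex protein with tudor domains, had 19.2 and 43.0 CPM in C (HS), against 8.78 and 7.66 CPM in C (log2 1.92, SE 0.37, adjusted p = 0.00102). The gene sid-2 gave 1.61, sid-5, which encodes an endosomal protein of RNA transport between cells, 1.11 and hrde-2 1.05.

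The change in C (HS) followed transcript length over the whole transcriptome. The median log2 fold change of all genes was 0.93 in the tercile of genes with the shortest exon length and -0.92 in the tercile with the longest, of at least 1434 bases. Of the 55 members, 47 lay in the longest tercile, where their median was -0.79 and 25 were lower and 1 higher. With the length trend removed, 9 members were lower and 18 higher, where 17.4% of all genes were lower and 24.2% higher, and the members' median was 0.13. Of the 27 lower genes 9 stayed called lower under all 10 other settings that keep every library, namely drh-3, eri-7, henn-1, hrde-4, nrde-1, nrde-2, nrde-4, rde-1 and rrf-1. Scaled by library size alone, 46 members were lower and 1 higher, where 52.1% of all genes were lower and 7.07% higher. Markers moved with the heat shock as well. The muscle markers summed to 15966 to 20004 CPM in C (HS) and 6565 to 6706 CPM in C, with 8 of 10 called higher and 2 lower, and the sperm markers to 1767 to 1858 CPM in C (HS) and 899 to 979 CPM in C, with 8 of 18 higher and 4 lower. Germline markers were lower for 5 of 16 and higher for 1, and neuron markers lower for 5 of 10 and higher for 3. Oocyte markers were higher for 3 of 12 and lower for 1, and embryo markers higher for 3 of 8 tested. Intestine markers were higher for 4 of 10 and lower for 1, and hypodermis markers higher for 2 of 10 and lower for 2. Their part in the members' changes was not tested. In skn-1i against rIIS-C the length terciles differed less, with medians of 0.29 and -0.46 for all genes, and in hsf-1i (HS) against rIIS-C (HS) they were 0.21 and -0.31.

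**Figure D4:**
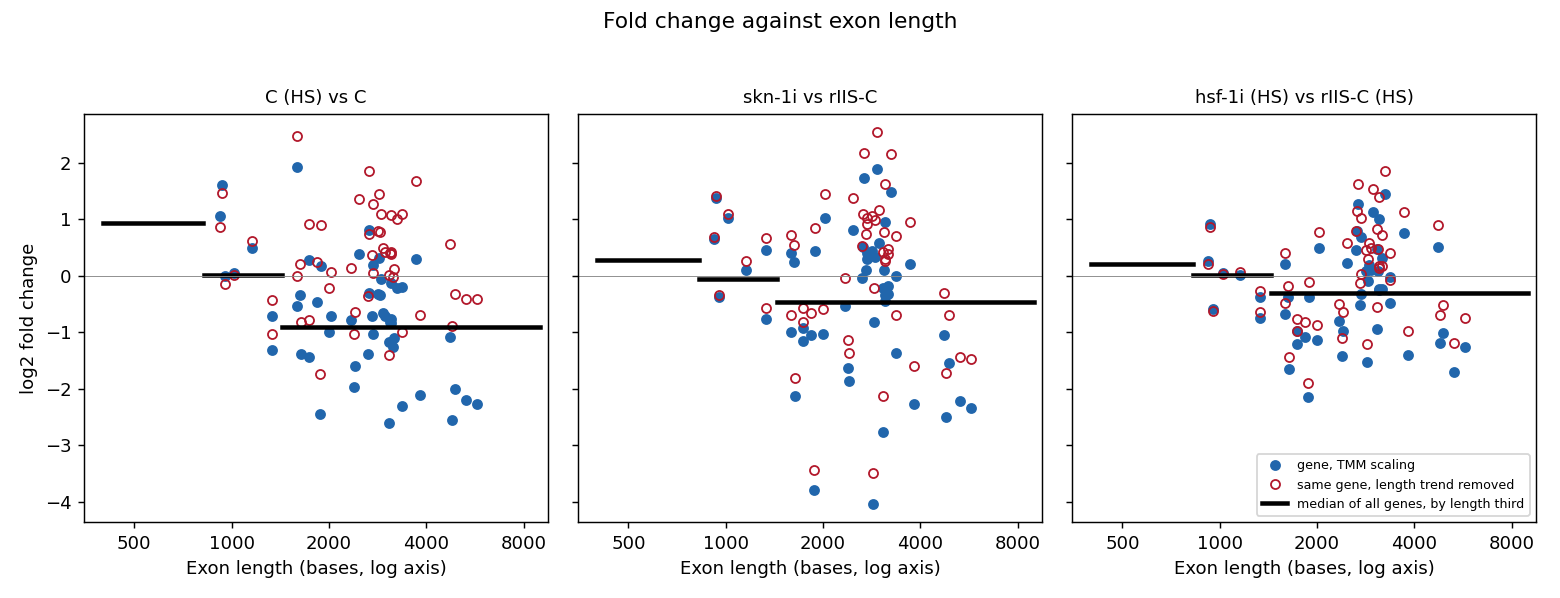
Log2 fold change of the members against exon length in bases (log axis) for C (HS) against C, skn-1i against rIIS-C and hsf-1i (HS) against rIIS-C (HS); filled points use TMM scaling, open points have the length trend removed, and black lines are the medians of all genes in each tercile of exon length. In C (HS) against C the line falls to -0.92 in the long tercile, against 0.93 in the short tercile, and the members of the long tercile have a median of -0.79.

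In daf-2 animals the same heat shock left no member called from exon reads, and the pseudogene drh-2, from gene reads, is given further on. In rIIS-C (HS) against rIIS-C none of 55 passed, where 1.89% of all genes were called higher and 0.32% lower. The median was -0.38 over the members and -0.03 over all genes. At an unadjusted p under 0.05 there were 16 members, and 2327 of all 14084 genes tested. Of the 55 members 39 were lower in both junction classes, and the same share over all genes was not counted. DESeq2 called 1 member higher and 3 lower, where 3.69% of all genes were higher and 0.90% lower. For limma 7 members were lower, where 4.01% of all genes were. Scaled by library size alone 5 were lower, where 1.76% of all genes were. The members' median was -0.12 without rIIS-C 1 and -0.60 without rIIS-C 2, where it was 0.0008 and 0.03 over all genes. Called higher were 6 of 18 sperm, 5 of 10 muscle, 3 of 10 intestine and 1 of 10 hypodermis markers, and none was lower. None of the germline, oocyte, embryo and neuron markers was called. The part of these cell types in the members' values was not tested.

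Between the heat-shocked strains, 13 of 53 members were higher and 2 lower in rIIS-C (HS) against C (HS), where 10.4% of all genes were called higher and 14.5% lower. The median was 0.52 over the members and -0.07 over all genes. The RdRP rrf-1 had 23 and 41.1 CPM in rIIS-C (HS), against 6.07 and 10.4 CPM in C (HS) (log2 1.90, SE 0.38, adjusted p = 0.0134). Dicer had 42.7 and 73.1 CPM in rIIS-C (HS), against 12.6 and 23.1 CPM in C (HS) (log2 1.64, SE 0.36, adjusted p = 0.0176). In rde-1 the values were 32.7 and 41.4 CPM in rIIS-C (HS), against 7.48 and 17.6 CPM in C (HS) (log2 1.52, SE 0.39, adjusted p = 0.0284). The groups did not overlap in these genes or in nrde-4, with a log2 fold change of 1.5. Lower were sago-2, with 7.58 and 10.7 CPM in rIIS-C (HS), against 33.8 and 26.5 CPM in C (HS) (log2 -1.80, SE 0.32, adjusted p = 0.00987), and eri-5 (log2 -1.45, SE 0.39, adjusted p = 0.0331). The length terciles ran the other way, at -0.72 for the short and 0.63 for the long tercile of all genes, and members of the long tercile had a median of 0.65. With the length trend removed no member was higher and 8 were lower, where 3.73% of all genes were higher and 9.67% lower. With library size as the only scale 37 were higher and 1 lower, where 38.7% of all genes were higher and 3.57% lower. The members' median was 0.32 without rIIS-C (HS) 2, 0.54 without rIIS-C (HS) 1, 0.41 without C (HS) 1 and 0.65 without C (HS) 2. Over all genes it was -0.07, -0.12, 0.06 and 0.04 in the same order. Muscle markers were lower for 7 of 10 and higher for 1, embryo markers higher for 4 of 8 and germline markers higher for 3. Oocyte markers were lower for 2 of 12 and hypodermis markers for 2 of 10. Sperm markers were higher for 2 of 18 and lower for 2, intestine markers higher for 2 and lower for 1, and neuron markers higher for 1 and lower for 2. The part of these markers was not tested.

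The heat responses of the strains differed in 10 of 55 members by the interaction test, 8 with a higher value in the daf-2 strain and 2 with a lower one, where 9.97% of all genes were called higher and 10.6% lower. The 8 genes were rrf-1, nrde-2, drh-3, rde-1, sago-1, dcr-1, ppw-2 and nrde-4, with differences of 1.82 to 1.45 on the log2 scale. The 2 genes with a lower value were eri-5 and hrde-2, at -2.21 and -1.31. None of the 10 stayed called under all 10 other settings that keep every library, and with the length trend removed there were none higher and 12 lower, where 5.74% of all genes were higher and 9.59% lower. On the library size scale 29 were higher and 1 lower, where 27.5% of all genes were higher and 2.79% lower. When single libraries were left out, the members' median difference lay between 0.24 and 0.60, and that over all genes between -0.06 and 0.07. For the members it was lowest without rIIS-C 2 and highest without rIIS-C 1.

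The pseudogenes prg-2, wago-2 and drh-2 were measured by reads anywhere in the gene. In heat-shocked animals the Piwi pseudogene prg-2 (chromosome IV, 6526962 to 6529802) had 14.7 and 16.1 CPM in hsf-1i (HS), 47.3 and 70.8 CPM in rIIS-C (HS), and 13.4 and 17.4 CPM in C (HS). Without heat shock it had 18.9 and 18.8 CPM in skn-1i, 133 and 140 CPM in daf-16i, 89.6 and 98.0 CPM in rIIS-C, and 123 and 131 CPM in C. The skn-1i, hsf-1i (HS) and C (HS) libraries lay below the others with no overlap. On total gene reads, where 28.2% of all genes were lower, the log2 fold change in skn-1i against rIIS-C was -2.24 for prg-2, -2.18 for wago-2 and -2.89 for drh-2, a helicase pseudogene next to drh-1 (chromosome IV, 6613918 to 6618498), with adjusted p = 6.31e-06, 2.18e-05 and 1.38e-05. In hsf-1i (HS) against rIIS-C (HS), where 18.1% of all genes were lower, it was -1.91, -2.25 and -1.97. In C (HS) against C, where 24% were lower, it was -3.04, -1.27 and -1.46. Between the heat-shocked strains prg-2 was higher in the daf-2 mutants (log2 1.89, SE 0.29, adjusted p = 0.0063), where 10.2% of all genes were, and its heat response was higher in the daf-2 strain by 2.39 (SE 0.31, adjusted p = 0.000586), where 9.42% of all genes were. In rIIS-C (HS) against rIIS-C, drh-2 was lower (log2 -1.79, SE 0.34, adjusted p = 0.0171), where 0.269% of all genes were. Its functional neighbour drh-1, a RIG-I-like helicase of antiviral RNAi, had 44 and 35.2 CPM in skn-1i, against 57.4 and 43.4 CPM in rIIS-C, and the groups overlapped.

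**Figure D5:**
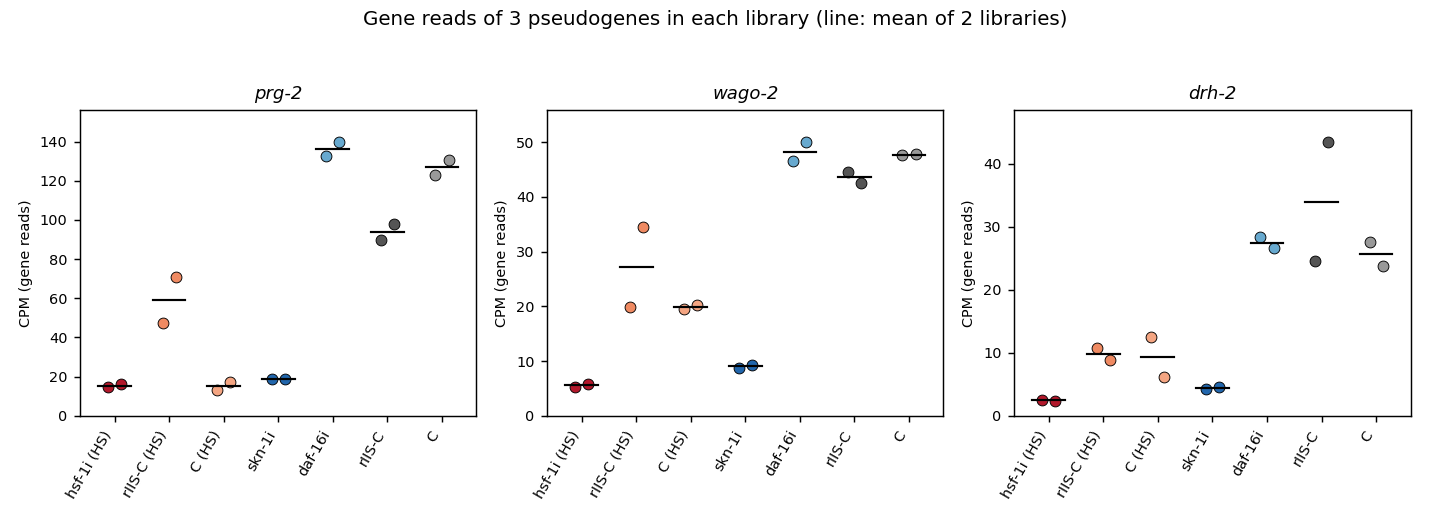
CPM from gene reads (linear axis) of the pseudogenes prg-2, wago-2 and drh-2 in each of the 14 libraries, by group; points are libraries and the line is the mean of 2 libraries. The prg-2 points sit at 18.9 and 18.8 CPM in skn-1i and at 89.6 and 98.0 CPM in rIIS-C.

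Other small RNA genes outside the name rule were followed as a list of 62 names, of which 52 were found and 48 tested. In skn-1i against rIIS-C 14 were lower and 13 higher, with a median of -0.36, close to the 30.6% and 25.7% of all genes. The ABC transporter gene haf-6, required for efficient RNAi, gave -2.47, drsh-1, the nuclear microRNA processing enzyme Drosha, -2.33, and met-2, a histone H3 lysine 9 methyltransferase, -2.19. In hsf-1i (HS) against rIIS-C (HS) 11 were lower and 7 higher, where 19.3% and 18.8% of all genes were, led by haf-6 at -1.99, pash-1, the partner of Drosha, at -1.56 and prde-1, a Piwi RNA transcription factor, at -1.26. In C (HS) against C 20 were lower and 11 higher, where 24.9% and 27.4% of all genes were, with drsh-1 at -2.34, the germ granule helicase gene znfx-1 at -2.30 and met-2 at -2.22. In rIIS-C against C haf-6 was lower, at -2.71, and meg-4 higher, at 0.74. In daf-16i against rIIS-C and in rIIS-C (HS) against rIIS-C none was called. The WAGO Argonaute listed as C04F12.1, which RefSeq names vsra-1, had 128 and 99.6 CPM in skn-1i, against 71.1 and 47.0 CPM in rIIS-C (log2 0.95, SE 0.21).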

How the data were processed

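The authors made poly(A) libraries with an unstranded kit, sequenced them as single reads of differing length, and mapped them to WBcel235 in a commercial workbench; the submitters' processing notes name CASAVA 1.8.2. The deposited tables give counts of exon reads, unique exon reads and gene reads per gene, and the authors' RPKM values. Counts of total exon reads were used here, and the RPKM values only for an alternative test; 4 unnamed value columns were not used. The name rule was applied to the gene names, and all 58 gene IDs matched RefSeq. Members, role groups and lists were chosen with earlier results of these data known.

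Genes were filtered with filterByExpr and tested with edgeR 4.0.16 (quasi-likelihood, TMM, group means without a block) in R 4.3.3, and p-values were adjusted by the Benjamini-Hochberg method over all genes tested. There were 13892 genes in the fit of the 12 libraries without C (HS), 13149 in the fit of the 6 heat-shocked libraries, used for rIIS-C (HS) against C (HS), and 14084 in the fit of all 14 libraries, used for the heat responses. Exon reads per library limit the precision, and with 2 libraries per group the spread is shared across groups. Named were a list of role genes and, in each comparison, up to 4 called members in each direction with the largest change. Genes of the list of other small RNA genes were named up to 3 per comparison. Alternatives were DESeq2 1.42.0, its size factors in edgeR, library size only, no filter, other sets of libraries, limma 3.58.1 on log2(RPKM + 1), unique exon reads, total gene reads, removal of the exon length trend, blocks for the replicate number and the junction class, and leaving out each library. Library size only and total gene reads were chosen after seeing the data. Scripts were tested on simulated data. Figures were drawn with matplotlib 3.10.9.

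The replicate numbers in the labels do not pair the libraries: the deviations of same-numbered libraries correlated at -0.83 to 0.83 over 2682 genes, above 0.1 in 14 of 21 pairs of groups. Libraries of the same junction class, in the 6 groups without C (HS), correlated at 0.44 to 0.83, above 0.1 in 15 of 15 pairs of groups. The main fit has no block, so its p-values and calls do not use this pairing.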

Additional observations from a re-analysis of the deposited data

Results flagged for a closer look

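The heat responses of the daf-2 and control strains differed by the interaction test in edgeR for 11 members, given as rIIS-C minus C on the log2 scale. From exon reads these are 8 higher and 2 lower of 55, where 9.97% of all genes were called higher and 10.6% lower. With the exon length trend removed none was higher and 12 were lower, and none of the 10 stayed called under all 10 other settings that keep every library. The responses were higher in the daf-2 strain for rrf-1 (1.82), nrde-2 (1.61), drh-3 (1.59), rde-1 (1.56), sago-1 (1.53), dcr-1 (1.52), ppw-2 (1.47) and nrde-4 (1.45), and, from total gene reads, for the pseudogene prg-2 (2.39). They were lower in the daf-2 strain for eri-5 (-2.21) and hrde-2 (-1.31). The C (HS) libraries enter each of these values, and their junction share, which lies between those of the other libraries, cannot be told apart from the group.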

How the results depend on the processing

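Counts are members higher and lower, with the TMM fit's counts in the report. Scaled by library size alone they were 11 and 1 (rIIS-C vs C), 37 and 1 (rIIS-C (HS) vs C (HS)), 0 and 1 (daf-16i vs rIIS-C), 2 and 41 (skn-1i vs rIIS-C), 1 and 39 (hsf-1i (HS) vs rIIS-C (HS)), 2 and 36 (skn-1i vs daf-16i), 1 and 46 (C (HS) vs C), 0 and 5 (rIIS-C (HS) vs rIIS-C) and 29 and 1 (difference of heat responses). In the same order limma gave 6 and 1, 38 and 0, 0 and 1, 1 and 40, 1 and 37, 0 and 36, 0 and 46, 0 and 7, and 28 and 0. Of all genes, limma called 5.21%, 43.4%, 2.30%, 7.91%, 5.56%, 9.60%, 5.75%, 1.24% and 27.2% higher. It called 4.98%, 3.48%, 3.34%, 62.9%, 49.5%, 57.3%, 53.9%, 4.01% and 2.63% lower. The RPKM values it used carry no TMM factor. With the exon length trend removed they were 10 and 1, 0 and 8, 1 and 3, 26 and 18, 19 and 20, 28 and 15, 18 and 9, 1 and 0, and 0 and 12. With only the groups compared, rIIS-C vs C had 0 higher, where 1.53% of all genes were. In that setting rIIS-C (HS) vs C (HS) had 5 and 1 (all genes 4.84% and 7.41%). The difference of heat responses had 1 and 0 (all genes 3.25% and 2.58%). With all 14 libraries rIIS-C vs C had 0 higher (all genes 1.53%), rIIS-C (HS) vs C (HS) 23 and 5 (18.9% and 19.4%), and hsf-1i (HS) 6 higher (12.4%). With no filter rIIS-C vs C had 1 higher (all genes 3.02%), daf-16i 2 higher (3.04%), and rIIS-C (HS) vs rIIS-C 1 and 3 (2.44% and 0.52%). DESeq2 gave daf-16i 1 higher and rIIS-C (HS) vs rIIS-C 1 and 3. On unique reads rIIS-C vs C had 0 lower (all genes 5.45%) and hsf-1i (HS) 6 higher (18.0%). On total gene reads rIIS-C (HS) vs rIIS-C had 1 lower (0.269%).

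Without single libraries the counts ranged from 0 to 12 higher and 1 to 4 lower (rIIS-C vs C), 0 to 24 and 0 to 5 (rIIS-C (HS) vs C (HS)), 0 to 3 and 0 to 2 (daf-16i), 7 to 20 higher (skn-1i vs rIIS-C), 5 to 7 higher (hsf-1i (HS)), 10 to 12 higher (skn-1i vs daf-16i), 0 to 1 higher (rIIS-C (HS) vs rIIS-C), and 2 to 16 and 0 to 6 (difference of heat responses). The junction class as a block gave 13 higher for rIIS-C vs C and 1 and 3 for daf-16i. It gave 14 and 21 for skn-1i vs rIIS-C, where 28.7% of all genes were higher and 34.0% lower. For hsf-1i (HS) it gave 11 and 21, where 22.8% of all genes were higher and 23.8% lower. For skn-1i vs daf-16i it gave 17 and 20, where 30.8% of all genes were higher and 33.5% lower. For rIIS-C (HS) vs rIIS-C it gave 0 and 0. This block was not run for comparisons with C (HS).

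A replicate block gave 3 and 1 in rIIS-C vs C, 13 and 2 in rIIS-C (HS) vs C (HS), 0 and 0 in daf-16i, 11 and 21 in skn-1i vs rIIS-C, 10 and 19 in hsf-1i (HS), 15 and 19 in skn-1i vs daf-16i, 4 and 28 in C (HS) vs C, 0 and 0 in rIIS-C (HS) vs rIIS-C and 8 and 2 in the difference of heat responses.

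In C (HS) vs C, sid-5 reversed to -0.29 with the length trend removed and hrde-2 to -0.048 with limma; the cause was not tested. Of 755 other values of 48 named changes, 643 kept direction and call and 110 kept the direction only. With 2 libraries per group, changes of single genes below the calls may be missed.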
